A study of Mus musculus with 217 samples.

Results

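The nucleus accumbens (NAc), the ventral part of the striatum, was compared between the late and the early part of the rest phase of the mouse, at zeitgeber time 10 (ZT10) and zeitgeber time 2 (ZT2). Zeitgeber time counts hours from lights on at ZT0, so ZT10 falls late in the light part of a 12:12 h light/dark cycle and ZT2 early in it. The comparison used every NAc library labelled with either time, which are 25 of the 77 NAc libraries and of 217 libraries in all, and every one of the 11867 genes measured in that region. The ZT10 group held 12 libraries, from 6 females and 6 males, and the ZT2 group held 13, from 6 females and 7 males. Both groups were adult C57BL/6J mice of about 10 weeks, kept under the same light cycle with no drug, diet or genetic change named in the labels. A library came from 1-mm tissue punches of both hemispheres of 1 mouse, and the ZT10 and ZT2 mice were different animals. The wider study sampled the NAc, the dorsomedial striatum (DMS) and the dorsolateral striatum (DLS) of mice at 6 times a day by RNA sequencing, to describe daily rhythms of gene expression in these regions. Values are the authors' log2 normalised counts, so a difference of 1 is a doubling, and each difference below is ZT10 minus ZT2 with its standard error. The library totals behind these values are not known. A gene was called changed at an adjusted p of less than 0.05 in limma's moderated test with sex as a covariate, adjusted by the Benjamini-Hochberg method over all genes of the table.

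The circadian clock of mammalian cells is a feedback loop in which the activators CLOCK (or NPAS2) and BMAL1, the product of Arntl, bind DNA at E-boxes and switch on the genes of their own repressors, the PER, CRY and CIART proteins. A second loop runs through the nuclear receptors REV-ERBα and REV-ERBβ (Nr1d1 and Nr1d2), which repress Arntl, and output factors such as DBP carry the rhythm to other genes through D-boxes. Mice are active at night and sleep mostly in the light, and body temperature, corticosterone and neuronal activity all vary over the day. The NAc, which takes part in reward and motivation, consists mainly of medium spiny neurons that receive dopamine.

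Genes that mark medium spiny neurons were abundant in every library. Ppp1r1b, which encodes the dopamine-regulated phosphatase inhibitor DARPP-32, had a lowest, median and highest log2 value of 13.66, 14.47 and 14.77 at ZT10, against 14.18, 14.48 and 14.81 at ZT2. Libraries also differed in RNA of cortical excitatory neurons, which are not striatal cells. The summed level of the 5 measured markers of such neurons, out of 8 listed, was 10.96, 12.12 and 14.39 at ZT10, against 10.35, 11.20 and 13.85 at ZT2 (lowest, median, highest). In 5 libraries it was 13.36 or more, of which 4 were ZT10 libraries (F20, M16, M37 and M40) and 1 was a ZT2 library (F10), while all others were at 12.56 or less. Slc17a7, the vesicular glutamate transporter of cortical neurons, differed by 2.33 ± 0.77 without passing the test (adjusted p = 0.23). The defining markers of the choroid plexus and ependyma, such as Ttr, were not in the table, and mitochondrial rRNA made up a median of 35.2% of the summed values at ZT10 and 33.5% at ZT2. Pairs of libraries correlated at 0.919 to 0.989 across genes. The part of cortical RNA in the differences below was not tested, but the counts of called genes, in all and by gene list, were also taken without those 5 libraries. In bulk tissue, fewer cells of a type and less RNA per cell cannot be told apart.

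Of the 11867 genes, 37 (0.312%) were called, 18 higher at ZT10 (0.152%) and 19 lower (0.16%). Without adjustment, 1293 genes had p under 0.05. The higher genes rose by 1.27-fold to 2.69-fold with a median of 1.51-fold, and 10 of them by more than 1.5-fold. The lower genes had ratios of 0.516 to 0.821 with a median of 0.733, and 5 of them differed by more than 1.5-fold. Over all genes the median difference was 0.00 and the median size of a difference was 0.10, with a median standard error of 0.12. All ZT10 libraries were on one side of all ZT2 libraries in 5 genes (0.0421% of those tested), and these were Rbm3, Ciart, Dbp, Cirbp and Arntl. The counts moved with single libraries: without the ZT10 library M18, 11 genes were higher and 11 lower, without the ZT2 library M7 12 were lower, and without the ZT2 library M9 11 were lower. Of the 37 genes, 22 were called in each of the 25 fits that left out 1 library. The call was lost in at least 1 of these fits for Zfp189, Nr1d1, Haghl, Pwwp2b, Psmf1, Gpcpd1, Hnrnpdl, Stip1, P4ha1, Dnaja4, Vgf, Rab3ip, Etv5, Cacng3 and Fam163a. After scaling every library to an equal sum, 13 genes were called, of which 12 were among the 37, namely Rbm3, Ciart, Dbp, Cirbp, Nr1d2, Arntl, Cldn5, Hspa5, Pdia4, Pdia6, Rab3ip and Fam163a. Without the 5 libraries rich in cortical marker RNA, 28 genes were called, 13 higher and 15 lower, of which 16 were among the 37.

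**Figure D1:**
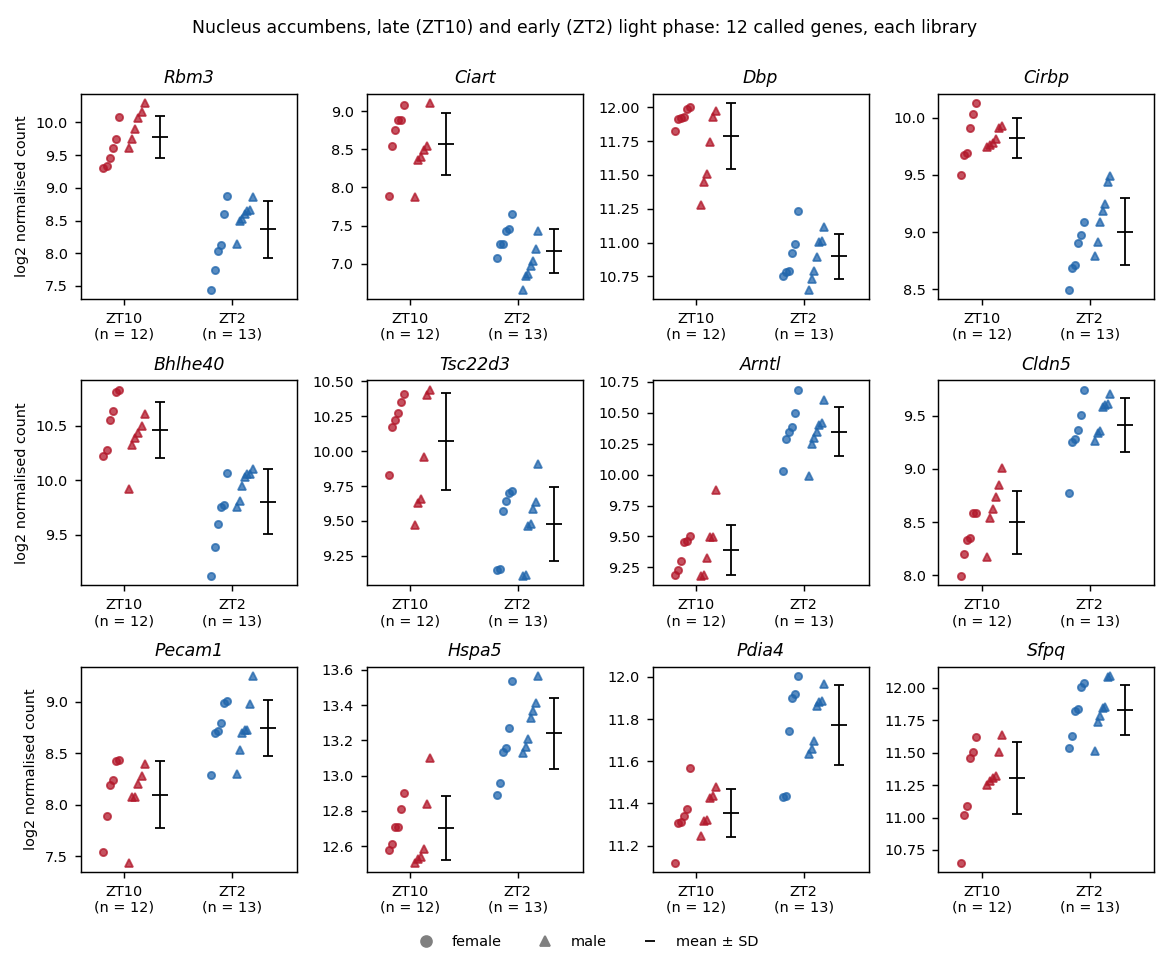
Deposited log2 value in each NAc library (vertical axis) for 12 called genes, with ZT10 libraries left of ZT2 libraries, circles for females, triangles for males, and bars for the mean ± SD. Rbm3, Ciart, Dbp and Cirbp lie wholly higher at ZT10 and Arntl wholly lower, while the groups of the other genes overlap.

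Among the repressors of the clock, Ciart and both REV-ERB genes were higher at ZT10, while none of the Per and Cry genes passed the test. Ciart, which encodes a repressor of CLOCK and BMAL1 (gene body on GRCm38 chr3:95878503-95882251, minus strand), had a lowest, median and highest value of 7.88, 8.55 and 9.11 at ZT10, against 6.66, 7.20 and 7.65 at ZT2. The lowest ZT10 library was above the highest ZT2 library, with a difference of 1.40 ± 0.13 (2.63-fold, adjusted p = 1.2e-07). Nr1d2 was at 11.54, 11.72 and 12.14 at ZT10, against 11.05, 11.34 and 11.63 at ZT2, and rose by 0.45 ± 0.07 (adjusted p = 0.00202), with all 12 ZT10 libraries above the ZT2 median. Nr1d1 was at 10.06, 10.56 and 10.97 at ZT10, against 9.63, 10.15 and 10.48 at ZT2, a difference of 0.53 ± 0.11 (adjusted p = 0.0268) with wide overlap. It was no longer called without the 5 libraries rich in cortical marker RNA (0.56, adjusted p = 0.113).

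The promoter of Ciart is shown because this gene has the largest difference among the clock repressors and 3 perfect E-boxes close to its start. The sequence is from RefSeq on GRCm38.p6, chr3:95882229-95882478 on the minus strand, the 250 bases before the transcription start, 5′ to 3′, with each E-box (CACGTG) in capitals. They begin at positions -116, -58 and -44 relative to the start.
Ciart: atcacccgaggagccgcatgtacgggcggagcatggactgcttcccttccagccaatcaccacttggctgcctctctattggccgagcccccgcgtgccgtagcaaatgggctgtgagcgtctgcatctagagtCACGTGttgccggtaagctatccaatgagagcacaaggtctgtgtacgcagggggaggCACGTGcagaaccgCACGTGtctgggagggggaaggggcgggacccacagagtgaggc

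The period and cryptochrome genes, whose proteins close the main feedback loop, had smaller differences. Per1 differed by 0.11 ± 0.13 and Per3 by 0.29 ± 0.15 (adjusted p = 0.811 and 0.486). Per2 was at 8.89, 9.50 and 10.36 at ZT10, against 8.74, 9.98 and 10.38 at ZT2, a difference of -0.23 ± 0.19 (adjusted p = 0.692), and its groups spanned nearly the same range. Cry1 differed by -0.32 ± 0.09 (adjusted p = 0.124) and was below the ZT2 median in 11 of 12 ZT10 libraries, whereas Cry2 differed by 0.08 ± 0.07.

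Arntl, the gene of the activator BMAL1, had the largest fall of the 37 called genes. Its values were 9.18, 9.39 and 9.88 at ZT10, against 9.99, 10.34 and 10.69 at ZT2, so the groups did not overlap. The difference was -0.96 ± 0.08 (0.516 of the ZT2 level, adjusted p = 4.3e-08). It was -0.99 without the 5 libraries rich in cortical marker RNA. The partner genes Clock (-0.16 ± 0.10) and Npas2 (-0.16 ± 0.08) did not pass the test, nor did the nuclear receptors Rora (0.05 ± 0.08) and Rorb (-0.10 ± 0.12), which bind the same DNA element as the REV-ERBs. Arntl (gene body chr7:113207465-113314126, plus strand) carries such an element just after one of its transcription starts. A stretch of 30 bases around it (RefSeq, GRCm38.p6, chr7:113207530-113207559, plus strand, 5′ to 3′) is shown with the element, TAGGTCA, in capitals, starting at base 31 of the transcript from that start.
Arntl element: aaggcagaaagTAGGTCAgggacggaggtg

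In all, 4 of the 13 measured core clock genes were called, 3 higher and 1 lower, beside 0.312% of all genes, and the median difference of the list was 0.05, beside 0.00 over all genes. The sign of that median depends on the scaling, as it was -0.03 after scaling every library to an equal sum, which lowers each difference by 0.07. The median was also close to 0 without the 5 libraries rich in cortical marker RNA, where Ciart, Nr1d2 and Arntl were called. Of the 10 clock kinases and ubiquitin factors, which control the stability of PER and CRY proteins, none was called (median -0.03).

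Of 9 clock output genes, Dbp and Bhlhe40 were higher at ZT10 and none was lower, beside 0.152% and 0.16% of all genes. Dbp encodes a transcription factor that binds D-boxes. Its values were 11.28, 11.92 and 12.00 at ZT10, against 10.65, 10.89 and 11.23 at ZT2, and the groups did not overlap (difference 0.88 ± 0.08, 1.85-fold, adjusted p = 4.3e-08). Bhlhe40, which encodes the E-box repressor DEC1, was at 9.93, 10.47 and 10.83 at ZT10, against 9.12, 9.81 and 10.10 at ZT2. It rose by 0.66 ± 0.11 (adjusted p = 0.00202), and each ZT10 library was above the ZT2 median. Its relative Bhlhe41 differed by 0.32 ± 0.08 (adjusted p = 0.115). The other D-box factors were not called, with 0.13 ± 0.07 for Tef and 0.07 ± 0.08 for Hlf. Nfil3, a repressor at the same sites, differed by -0.32 ± 0.17 (adjusted p = 0.506), with 10 of 12 ZT10 libraries below the ZT2 median. Usp2 (0.10 ± 0.13), a clock-driven deubiquitinase, Wee1 (0.04 ± 0.11), a cell cycle kinase, and Cipc (0.13 ± 0.06), an inhibitor of CLOCK, were not called either. The list had a median of 0.13, and Dbp and Bhlhe40 were called without the 5 libraries rich in cortical marker RNA too. After scaling to an equal sum the median was 0.05 and Bhlhe40 was not called (0.58, adjusted p = 0.182).

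Both measured cold-inducible RNA-binding genes rose, and Rbm3 had the largest rise of the 37 genes. Rbm3 and Cirbp encode RNA-binding proteins that are induced by mild cooling, and Cirbp is known to follow the daily rhythm of body temperature. Rbm3 (chrX:8138975-8145880) was at 9.31, 9.75 and 10.30 at ZT10, against 7.44, 8.52 and 8.88 at ZT2. The difference was 1.43 ± 0.13 (2.69-fold, adjusted p = 4.3e-08). Cirbp (chr10:80165985-80172786) was at 9.49, 9.79 and 10.13 at ZT10, against 8.50, 8.98 and 9.49 at ZT2, a difference of 0.83 ± 0.09 (adjusted p = 3.61e-06). For Rbm3 the gap between the lowest ZT10 and the highest ZT2 library was clear, whereas for Cirbp the groups all but met. Without the 5 libraries rich in cortical marker RNA the difference was 1.35 for Rbm3 and 0.85 for Cirbp, and both were called.

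Among 21 measured chaperone genes of the endoplasmic reticulum (ER), the compartment in which secreted and membrane proteins fold, 4 fell at ZT10 and none rose. Of all genes, 0.16% were called lower and 0.152% higher. In the list 16 had a negative difference, beside 5944 of the 11867 genes. The list's median was -0.20, beside 0.00 over all genes. Hspa5, which encodes the ER chaperone BiP, was at 12.51, 12.66 and 13.10 at ZT10, against 12.89, 13.21 and 13.56 at ZT2. It fell by 0.54 on the log2 scale (SE 0.08, 0.690 of the ZT2 level, adjusted p = 0.000364), with all 12 ZT10 libraries below the ZT2 median. The protein disulfide isomerases Pdia4 and Pdia6 differed by -0.42 ± 0.07 and -0.36 ± 0.07 (adjusted p = 0.00202 and 0.00744). Pdia4 was at 11.12, 11.33 and 11.57 at ZT10, against 11.43, 11.86 and 12.00 at ZT2. Hsp90b1, which encodes the ER form of HSP90, was at 13.01, 13.13 and 13.42 at ZT10, against 13.14, 13.54 and 13.70 at ZT2, a difference of -0.34 ± 0.06 (adjusted p = 0.0109). Calr, the gene of the calcium-binding chaperone calreticulin, lay just outside the threshold at -0.33 (adjusted p = 0.051).

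Leaving out the 5 libraries rich in cortical marker RNA, 4 ER chaperones were called, Hspa5, Pdia4, Pdia6 and Calr, while Hsp90b1 was not (-0.32, adjusted p = 0.0867). The signalling genes of the unfolded protein response, the response to misfolded proteins in the ER, gave no call among 11 measured, with a median of -0.01. Within that list Xbp1 and Atf6, transcription factors that induce ER chaperones, differed by -0.15 and -0.18, Ddit3 by -0.21 and Atf4 by 0.20.

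Of 20 measured cytosolic heat shock chaperone genes, 2 fell at ZT10 and none rose, beside 0.16% and 0.152% of all genes. In this list 19 had a negative difference, beside 5944 of the 11867 genes, and the median was -0.20. Hsph1, which encodes a nucleotide exchange factor for HSP70, was at 12.72, 12.93 and 13.35 at ZT10, against 12.99, 13.37 and 13.65 at ZT2 (difference -0.38 ± 0.08, adjusted p = 0.0148). Stip1, the gene of the co-chaperone that joins HSP70 to HSP90, was at 11.02, 11.41 and 11.64 at ZT10, against 11.48, 11.69 and 11.77 at ZT2 (difference -0.28 ± 0.06, adjusted p = 0.0389). Each ZT10 library was below the ZT2 median for both genes, although the ranges overlapped. The major HSP70 gene Hspa8 (-0.30, adjusted p = 0.18) and the HSP90 genes Hsp90aa1 (-0.13) and Hsp90ab1 (-0.17) did not pass. The called genes of this list without the 5 libraries rich in cortical marker RNA were Hsph1, Hspa8, Chordc1 and Cryab. After scaling every library to an equal sum none of the list was called, and the sign of the median was the same under each scaling. Dnaja4, a co-chaperone of HSP70 outside the list, also fell (-0.32 ± 0.07, adjusted p = 0.0448). It was named after its values were seen, and its call was lost in 19 of the 25 fits that left out 1 library and without the 5 libraries rich in cortical marker RNA (adjusted p = 0.274).

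Among 15 measured glucocorticoid-responsive genes, which corticosterone induces through its receptor, Tsc22d3 rose and no other member was called. Of all genes, 0.312% were called. Tsc22d3, which encodes the glucocorticoid-induced leucine zipper protein, was at 9.47, 10.20 and 10.44 at ZT10, against 9.10, 9.57 and 9.91 at ZT2, and 11 of 12 ZT10 libraries were above the ZT2 median. The difference was 0.59 ± 0.12 (adjusted p = 0.0152). It was 0.45 (adjusted p = 0.255), and not called, without the 5 libraries rich in cortical marker RNA. In the list as a whole 12 differences were positive, beside 5923 of the 11867 genes, and the median was 0.23. Zbtb16 (0.66, adjusted p = 0.23), Nfkbia (0.53, adjusted p = 0.077) and Sgk1 (0.34, adjusted p = 0.12) had positive differences short of the threshold, whereas Fkbp5, a co-chaperone of the glucocorticoid receptor, differed by only 0.12.

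Of 15 endothelial genes, Cldn5 and Pecam1 were lower at ZT10 and none was higher, beside 0.16% and 0.152% of all genes. Cldn5 encodes claudin-5, the tight junction protein of the blood-brain barrier. Its values were 7.99, 8.56 and 9.01 at ZT10, against 8.78, 9.36 and 9.75 at ZT2 (difference -0.91 ± 0.10, 0.534 of the ZT2 level, adjusted p = 3.61e-06). Pecam1, the gene of the endothelial adhesion protein CD31, was at 7.44, 8.20 and 8.43 at ZT10, against 8.29, 8.72 and 9.25 at ZT2 (difference -0.65 ± 0.12, adjusted p = 0.0109). Every ZT10 library was below the ZT2 median for both genes.

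The other endothelial genes did not all share this direction. Kdr and Flt1, the VEGF receptors, differed by -0.64 (adjusted p = 0.10) and -0.48 (adjusted p = 0.30), and Cdh5, the gene of VE-cadherin, by -0.40. The transporter genes Slc2a1 and Slco1a4 differed by 0.31 and 0.25, and Bsg by -0.06. The summed level of the 15 genes was 13.97, 14.13 and 14.42 at ZT10, against 14.08, 14.27 and 14.53 at ZT2, and the list's median was -0.10. The 7 measured mural cell genes, of the pericytes and smooth muscle of vessels, gave no call and a median of 0.07, which changed sign without the 5 libraries rich in cortical marker RNA and after scaling to an equal sum. Without those 5 libraries Cldn5 was called at -0.86 (adjusted p = 0.000619) and Pecam1 was not (-0.66, adjusted p = 0.0867).

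The remaining genes that rose included Rasl11b, a RAS-like small GTPase gene (0.79 ± 0.15, adjusted p = 0.0135), and Mthfd1l, of mitochondrial folate metabolism (0.62 ± 0.10, adjusted p = 0.00242). Zfp189, a zinc finger transcription factor gene, differed by 0.61 ± 0.13 (adjusted p = 0.0268), and Haghl by 0.48 ± 0.10 (adjusted p = 0.0296). Coq10b, which encodes a coenzyme Q-binding protein of mitochondria, was at 8.76, 8.95 and 9.50 at ZT10, against 7.52, 8.44 and 9.17 at ZT2 (difference 0.60 ± 0.11, adjusted p = 0.00882). All 12 ZT10 libraries were above the ZT2 median for these 5 genes. Of 19 listed splicing regulators, Hnrnpdl rose (0.34 ± 0.08, adjusted p = 0.0389) and none fell, beside 0.152% and 0.16% of all genes. The list had a median of 0.01 and does not hold Sfpq, an RNA-binding protein gene that fell. The call of Hnrnpdl was lost in 15 of the 25 fits that left out 1 library. Named after their values were seen, Dclk1, a microtubule-associated kinase gene (0.41 ± 0.07, adjusted p = 0.00495), Pwwp2b (0.46 ± 0.10), Psmf1, a proteasome inhibitor gene (0.43 ± 0.09), and Gpcpd1, of phospholipid metabolism (0.36 ± 0.08), complete the 18 genes. Of these, Mthfd1l, Dclk1 and Pwwp2b were called without the 5 libraries rich in cortical marker RNA, although the call of Pwwp2b was lost in 18 of the 25 fits that left out 1 library, while Rasl11b, Zfp189, Coq10b, Haghl, Hnrnpdl, Psmf1 and Gpcpd1 had adjusted p of 0.0875 to 0.315.

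Coq10b is the one gene among those with a promoter in the RefSeq table and a higher level at ZT10 whose window holds both an E-box and a D-box. The 250 bases before its start are chr1:55052520-55052769 on the plus strand of GRCm38.p6, with the D-box (TTACATAA, which is TTANGTAA read on the other strand) and the E-box in capitals, at positions -162 and -78 relative to the start.
Coq10b: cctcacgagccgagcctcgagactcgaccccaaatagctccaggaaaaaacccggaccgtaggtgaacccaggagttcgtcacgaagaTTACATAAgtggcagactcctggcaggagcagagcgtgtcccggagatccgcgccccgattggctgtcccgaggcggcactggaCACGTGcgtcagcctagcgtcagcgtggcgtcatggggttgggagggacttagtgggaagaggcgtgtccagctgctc

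Each such motif was found in few of the called genes, so the shares of called genes below rest on small counts. RefSeq windows from 250 bases before to 50 after the start were at hand for 14 of the 18 higher genes and 17 of the 19 lower genes (31 of 37), with none for Bhlhe40, Gpcpd1, Pecam1, Pwwp2b, Rbm3 and Vgf. On either strand, CACGTG was in 2 windows of the higher genes (14.3%), 2 of the lower genes (11.8%, Fam163a and Hsph1) and 12.1% of the 9045 measured genes with a window. TTANGTAA was in 7.14% of the higher genes (Coq10b), none of the lower genes and 1.76% of all measured genes. TAGGTCA was in none of the higher genes, 5.88% of the lower genes (Arntl) and 2% of all measured genes. The heat shock motif GAANNTTC was in 14.3% of the higher genes (Psmf1 and Zfp189), 17.6% of the lower genes (Dnaja4, Grk5 and Hsph1) and 6.79% of all measured genes. The glucocorticoid half-site pair ACANNNTGT was in 1 lower gene (5.88%, Grk5) and 4.7% of all measured genes, and TGACGTCA was in none of the 37 and 3.84% of all measured genes. The motifs do not overlap each other in the windows shown, and a match describes these letters and not a bound site.

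Another 9 genes fell. Cacng3 encodes an auxiliary subunit of AMPA-type glutamate receptors and was at 10.05, 10.55 and 11.08 at ZT10, against 10.71, 11.06 and 11.53 at ZT2 (difference -0.47 ± 0.10, adjusted p = 0.0389). Grk5, a kinase that desensitises G protein-coupled receptors, differed by -0.51 ± 0.10 (adjusted p = 0.0137), and Rab3ip, an activator of vesicle transport GTPases, by -0.41 ± 0.09 (adjusted p = 0.0303). Fmnl1, a formin of the actin skeleton, differed by -0.68 ± 0.13 (adjusted p = 0.0143), and Fam163a by -0.74 ± 0.16 (adjusted p = 0.0296). Sfpq, an RNA-binding protein gene of nuclear paraspeckles, was at 10.65, 11.31 and 11.63 at ZT10, against 11.52, 11.84 and 12.09 at ZT2 (difference -0.52 ± 0.09, adjusted p = 0.00506). For Sfpq and Fmnl1 all 12 ZT10 libraries were below the ZT2 median. Etv5, an ETS transcription factor gene, fell by 0.45 on the log2 scale (SE 0.10, adjusted p = 0.0344). Vgf, a neuropeptide precursor gene (-0.38 ± 0.09), and P4ha1, a collagen prolyl hydroxylase gene (-0.31 ± 0.07), complete the 19 genes and were named after their values were seen. Of these 9 genes, Etv5 alone was called without the 5 libraries rich in cortical marker RNA (-0.58, adjusted p = 0.0137), while the others had adjusted p of 0.0568 to 0.342. The call of Etv5 was lost in 13 of the 25 fits that left out 1 library and after scaling to an equal sum (adjusted p = 0.216).

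**Figure D2:**
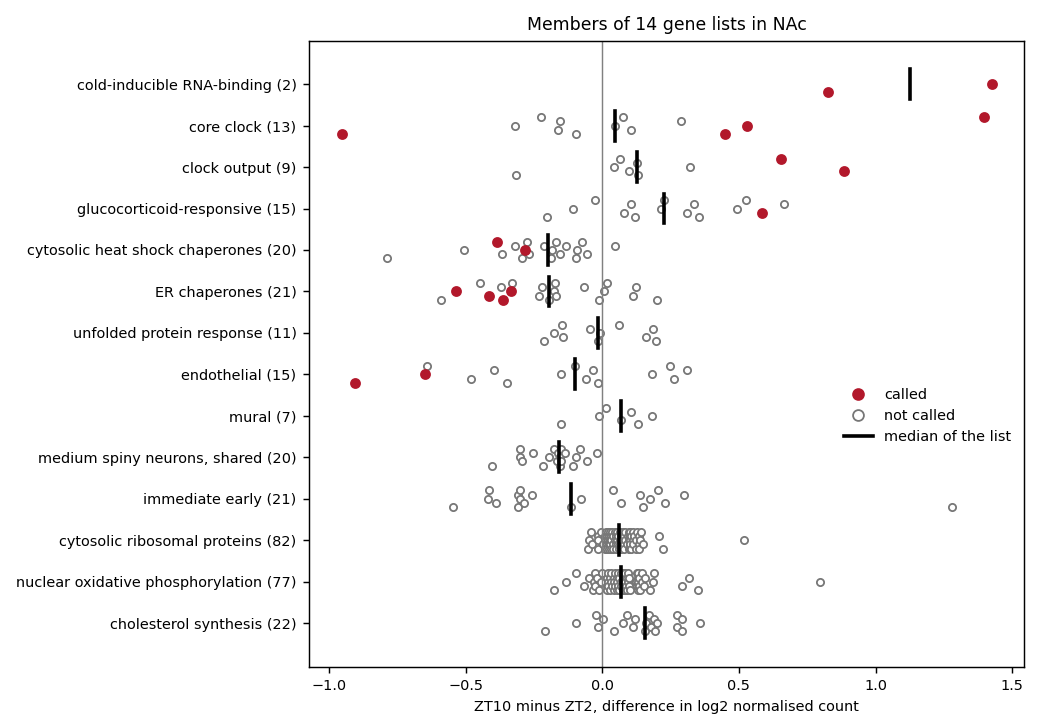
ZT10 minus ZT2 difference (log2, horizontal axis) of each measured gene in 14 gene lists, with called genes filled in red, genes not called as open circles, and a black bar at each list's median. The called members lie at both ends of the core clock list, where Arntl is lowest and Ciart highest, above 0 in the clock output and cold-inducible lists, and below 0 in the chaperone and endothelial lists.

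Genes of striatal neurons and their transmitters gave no call. All 20 markers shared by medium spiny neurons had negative differences, beside 5944 of the 11867 genes. The 20 differences ran from -0.41 to -0.02 with a median of -0.16, and none passed. The median was -0.01 without the 5 libraries rich in cortical marker RNA, and -0.06 with the cortical marker level as a covariate. Markers of direct-pathway neurons (9 genes, median -0.05), indirect-pathway neurons (8, -0.15) and interneurons (9, -0.06) had no called member either, nor did the genes of dopamine signalling (11, -0.15). The dopamine receptor gene Drd2 differed by -0.43 (adjusted p = 0.086) and Drd1 by -0.05. Receptor and peptide lists without a call were those of opioids (6 genes, median -0.05), adenosine and purines (7, 0.02), GABA (14, -0.02), glutamate (20, -0.04), acetylcholine (8, -0.08) and endocannabinoids (8, 0.03). The list of 18 voltage-gated potassium channels had a median of -0.11, and 11 genes of striatal position one of -0.20. Several of these medians were different without the 5 libraries rich in cortical marker RNA. They were then 0.0092 for dopamine signalling, -0.013 for indirect-pathway and 0.0058 for direct-pathway neurons, 0.13 for opioids, 0.03 for glutamate, -0.09 for endocannabinoids, 0.0047 for potassium channels and -0.05 for striatal position. Scaling to an equal sum turned the medians of the purine list to -0.06 and of the endocannabinoid list to -0.04.

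No measured member of the lists of immediate early genes, which neuronal activity induces, ERK feedback genes or Krüppel-like factors passed the test. Of 21 measured immediate early genes, 9 had a positive and 12 a negative difference, with a median of -0.12, and Fos differed by 0.07, Arc by -0.30 and Egr1 by -0.41. The 10 feedback genes of ERK signalling had a median of -0.16 and the 11 Krüppel-like factors one of 0.20, which was -0.02 without the 5 libraries rich in cortical marker RNA. Among glia, the medians were 0.02 for 15 astrocyte genes, -0.01 for 14 oligodendrocyte genes, -0.15 for 10 genes of their precursors and -0.14 for 15 microglial genes, with no calls. Septal and basal forebrain markers (5 measured, median 0.19), cortical markers (5, 1.53), choroid plexus and ependymal markers (2, -0.20), red blood cell genes (5, -0.10) and matrix genes (13, -0.07) held no called gene. None was found among 22 cholesterol synthesis genes (median 0.16), 8 genes of PPAR and lipid handling (-0.09), 12 mitochondrially encoded genes (0.01), the 2 mitochondrial rRNAs (0.17) or 31 proteasome genes (0.08). The 82 cytosolic ribosomal protein genes had a median of 0.06 and the 77 nuclear genes of oxidative phosphorylation one of 0.07, and both turned to -0.01 after scaling to an equal sum. The sign of the median also turned without the 5 libraries for the astrocyte (-0.07), choroid plexus and ependymal (0.23), proteasome (-0.01), ribosomal (-0.0031) and oxidative phosphorylation lists (-0.02). Equal sums also turned the astrocyte (-0.06), mitochondrially encoded (-0.07) and splicing (-0.06) lists.

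Females and males shared the direction of all 37 genes, but these genes were called in both sexes together, and that choice favours a shared sign. No gene of 11867 (0%) differed between the sexes in its time difference after adjustment (limma, smallest adjusted p = 0.395), and 589 had an unadjusted p under 0.05. The differences in females and males were 1.45 and 1.40 for Rbm3, 1.32 and 1.47 for Ciart, and -1.01 and -0.90 for Arntl. Bhlhe40 differed by 0.93 ± 0.14 in females and 0.40 ± 0.14 in males, and Dclk1 by 0.21 ± 0.09 in females and 0.59 ± 0.09 in males, and neither contrast between the sexes passed (adjusted p = 0.725 and 0.627). The 5 genes with the smallest unadjusted p were AW551984, Cbln4, Gabrg1, Lhx8 and Baiap3, none of them called. AW551984 differed by 0.78 in females and -1.66 in males, and Cbln4, which encodes a synaptic organiser, by 0.38 in females and -1.86 in males. Fits of 1 sex alone called 4 higher and 2 lower genes in females, and 16 higher and 12 lower genes in males. Of these calls, 6 in females and 11 in males were among the 37. All 37 also had the same sign in mice numbered up to 30 (7 at ZT10 and 9 at ZT2) and in mice numbered 31 and higher (5 and 4). The labels give the animal numbers, and their split into 2 ranges was chosen here. The choice of the 37 genes in all these mice favours a shared sign here too.

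Means over all 6 times place the 2 rest-phase times within the daily course of these genes. These means describe the NAc libraries, those of ZT2 and ZT10 included, and were not tested. At ZT6, midway between the groups, the mean lay between those at ZT2 and ZT10 for 35 of the 37 genes (94.6%), beside 44.7% of all genes. Since the genes were chosen for a wide gap between ZT2 and ZT10, that choice favours such a place for ZT6 and favours extremes at these 2 times. All 19 lower genes had their lowest mean of the day at ZT10, whereas their highest was at ZT18 for 10 genes, at ZT2 for 8 and at ZT22 for 1. The 18 higher genes had their highest mean at ZT10 in 12 cases, at ZT14 in 4 and at ZT6 in 2, and their lowest at ZT2 in 11 cases, at ZT18 in 6 and at ZT22 in 1.

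The course of single genes shows how ZT10 and ZT2 relate to their extremes. Rbm3 had means of 8.37, 9.16, 9.78, 9.62, 9.14 and 8.80 at ZT2, 6, 10, 14, 18 and 22, so ZT2 and ZT10 were its lowest and highest times. Arntl had means of 10.35, 9.81, 9.39, 9.62, 9.91 and 9.99, with its extremes at the same 2 times in the reverse order. Hspa5 had means of 13.24, 12.78, 12.70, 13.31, 13.56 and 13.07, lowest at ZT10 and highest in the dark at ZT18. Tsc22d3 had a mean of 10.07 at ZT10 and a higher one of 10.32 at ZT14, whereas Per2 had means of 9.81 at ZT2 and 9.59 at ZT10 on either side of its lowest mean of 9.29 at ZT6, with its highest of 10.46 at ZT14.

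**Figure D3:**
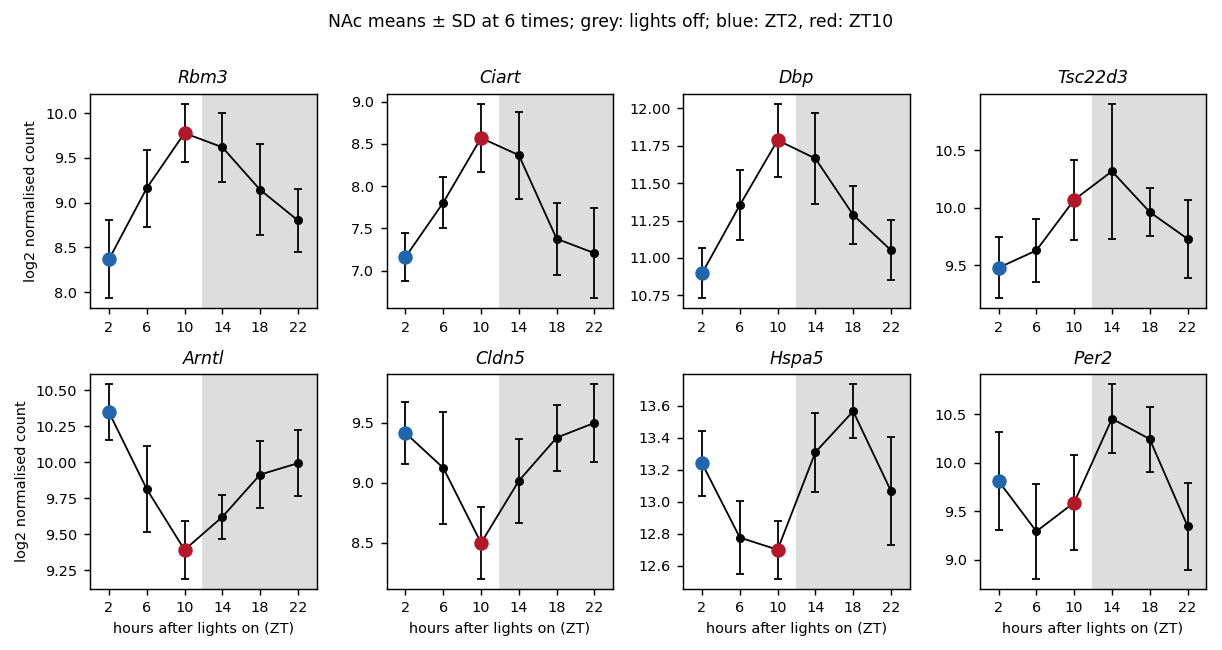
Mean ± SD of the deposited log2 value at 6 times (horizontal axis, zeitgeber time in hours, grey when lights were off) for 8 genes in the NAc. Rbm3, Ciart and Dbp are highest at ZT10, Arntl, Cldn5 and Hspa5 are lowest there, Tsc22d3 is highest at ZT14, and Per2 has means of 9.81 at ZT2 and 9.59 at ZT10.

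The dorsal striatum gave many more calls between the same times, and its differences had the same sign for all 37 genes. A count of calls depends on the spread between libraries as well as on the size of differences. It does not measure which region changes more. Of the 37 genes, 13 had a larger size of difference in the DLS than in the NAc and 16 in the DMS, although choosing them in the NAc favours large NAc values. The same test called 943 of 11394 genes in the DLS (8.28%), with 11 libraries at each time, and 724 of 12101 in the DMS (5.98%), with 11 libraries at ZT10 and 12 at ZT2. Of the 37 NAc genes, 33 were called in the same direction in the DLS (89.2% of the NAc calls and 3.50% of the DLS calls), and 29 in the DMS (78.4% and 4.01%). The regions are not independent, as 19 of the 25 NAc mice also gave a DLS library and 20 a DMS library. Each region was normalised on its own by the authors, so levels are not set across regions here and the tests compare differences taken within each region. The genes Zfp189, Grk5, Pecam1 and Fam163a were not called in the DLS.

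A test of the regional difference itself, over the 11283 genes in all 3 tables with the mouse as a block, called 20 genes between NAc and DLS (0.177%), 5 with a positive and 15 with a negative NAc minus DLS value. The 2 of these among the 37 were Ciart, at 1.40 in the NAc and 2.32 in the DLS (NAc minus DLS -0.93 ± 0.18, adjusted p = 0.0113), and Dbp, at 0.88 in the NAc and 1.40 in the DLS (-0.51 ± 0.11, adjusted p = 0.0191). Clock output genes that were not called in the NAc also differed. Bhlhe41 was at 0.32 in the NAc and 0.91 in the DLS (-0.59 ± 0.11, adjusted p = 0.0058), and Tef at 0.13 in the NAc and 0.52 in the DLS (-0.39 ± 0.09, adjusted p = 0.0449). The other genes with the largest regional differences were Ano2, a chloride channel gene (-0.93 ± 0.19, adjusted p = 0.0126), Kcna5, a potassium channel gene (-0.72 ± 0.16, adjusted p = 0.0275), and Id4, an inhibitor of DNA binding (-0.62 ± 0.13, adjusted p = 0.0191). Slc38a2, an amino acid transporter gene, went the other way, at 0.31 in the NAc and -0.30 in the DLS (0.61 ± 0.13, adjusted p = 0.0258).

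The number of regional calls depended on the setting. Between NAc and DLS, mitochondrial rRNA share as a covariate gave 193 genes and a fit of all 6 times gave 29. No gene was called between NAc and DLS after scaling to an equal sum. With fewer libraries, leaving out the 5 NAc libraries rich in cortical marker RNA, no gene was called between NAc and DLS. The smallest adjusted p was 0.0689 (limma), and 948 genes had an unadjusted p under 0.05. All 20 genes kept their sign, but each gene named above had a smaller size of difference. Ciart was at -0.91, Ano2 at -0.66, Kcna5 at -0.52, Bhlhe41 at -0.50, Id4 at -0.49, Dbp at -0.38, Tef at -0.29 and Slc38a2 at 0.55. Within the NAc, Ano2 then rose by 0.82 and was called (adjusted p = 0.000183), beside 0.56 with every library (adjusted p = 0.17). Between NAc and DMS no gene was called (0%, smallest adjusted p = 0.0962, limma), with 875 genes at an unadjusted p under 0.05. Without the 5 libraries, 2 were called, Slc35f6 (-0.66, adjusted p = 0.0242) and N4bp3 (-0.83, adjusted p = 0.0451), named after their values were seen. Pecam1 differed by -0.65 in the NAc, -0.05 in the DMS and -0.12 in the DLS, and its regional difference did not pass (NAc minus DLS -0.53 ± 0.13, adjusted p = 0.0526).

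**Figure D4:**
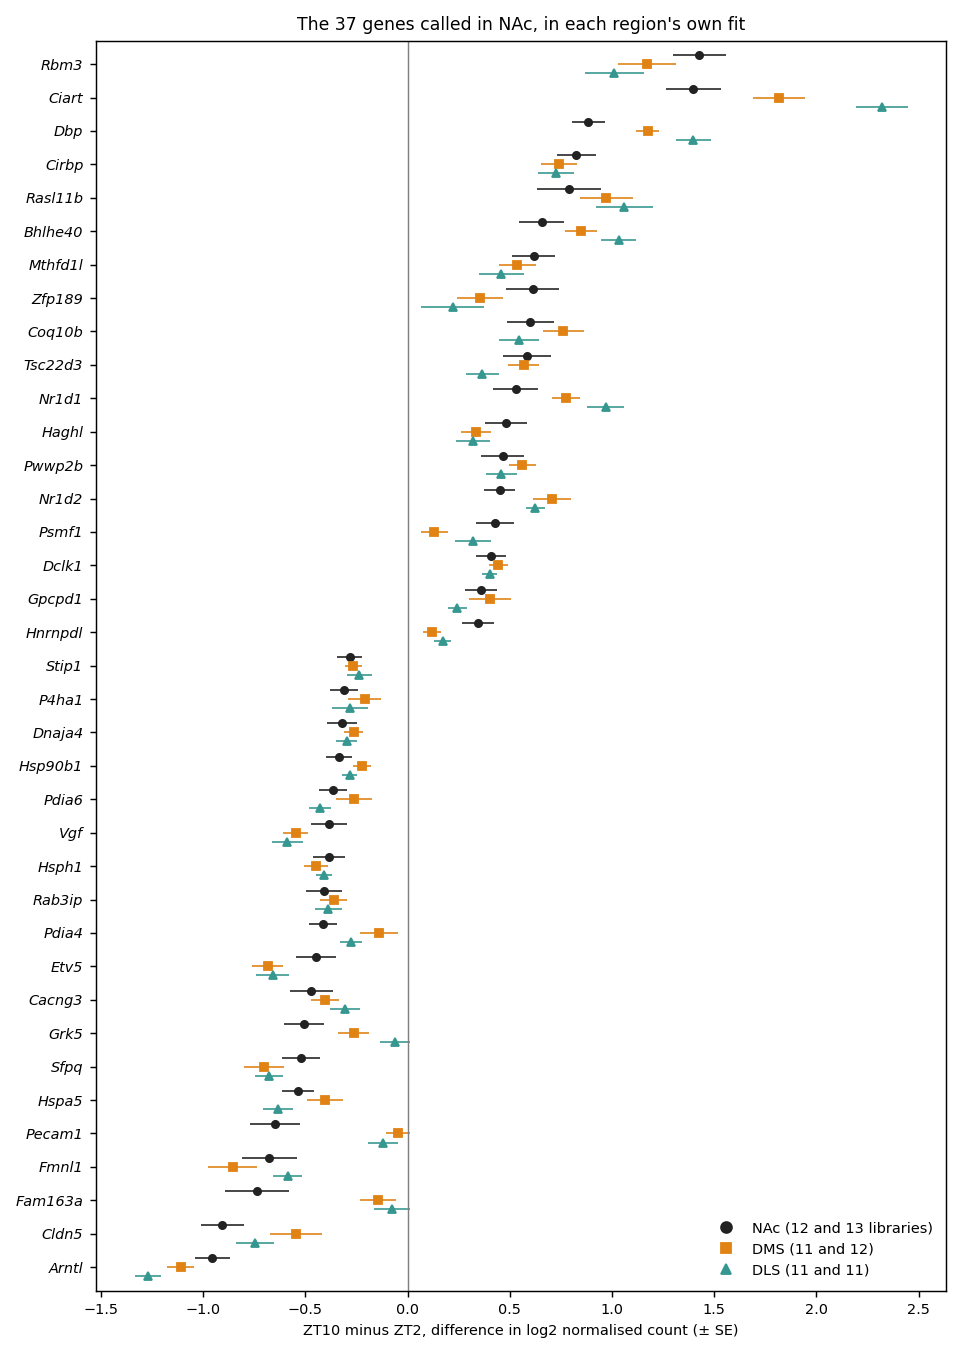
ZT10 minus ZT2 difference ± SE (log2, horizontal axis) of the 37 genes called in the NAc, in the NAc, DMS and DLS. The sign is the same in all 3 regions for each gene, Ciart and Dbp are smaller in the NAc than in the DLS, and Pecam1 and Fam163a lie near 0 in the dorsal regions.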

How the data were processed

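Per the submitters' processing notes and the series' design text, reads (paired, 75 bp, from a stranded total RNA library for low input) were aligned with HISAT2 2.1.0 to the Ensembl mouse genome GRCm38 and counted per gene with HTSeq 0.10.0. The authors normalised the counts of each region with DESeq2, filtered them and deposited log2 values. The NAc table has 9 values below 0 and its values do not step in whole reads, which the steps recorded in the sources used here do not account for, and depth is unknown. Whether counting used strand is not given in the sources used here, so overlapping genes, close paralogs and pseudogenes such as Ube2d-ps are uncertain.

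The deposited log2 values were used as they are, with no pseudocount or filter added. R 4.3.3 and limma 3.58.1 (lmFit, eBayes with a variance trend, checked on simulated data) fitted time and sex in the 12 ZT10 and 13 ZT2 NAc libraries, with Benjamini-Hochberg adjustment. Regions were compared in 1 fit of 70 libraries of 29 mice over 11283 genes, with the mouse as a block (correlation 0.031), which the animal numbers in the labels give. Symbols matched 11842 of the 11867 gene IDs. Named genes were the 12 called with the largest rise and fall each, all clock and cold-inducible genes, called members of the other lists, and the 5 largest regional calls. Other genes, uncalled list members among them, were named after their values were seen. Members and lists were chosen with earlier results of these data known. Alternatives covered scaling, covariates, filters, pseudocount, weights, subsets and single libraries left out. The mice are separate animals, and the labels name no batch. They give animal numbers, whose split at 30 was chosen here. Each title also holds an S number that repeats within the NAc, was not used, and has no stated meaning. Figures used matplotlib 3.10.9.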

Additional observations from a re-analysis of the deposited data

Results flagged for a closer look

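The ZT10 minus ZT2 difference was tested between regions, and 20 genes differed between NAc and DLS. This count was 0 after scaling to an equal sum and 0 without the 5 NAc libraries rich in cortical marker RNA. It was 193 with mitochondrial rRNA share as a covariate. The values named are NAc minus DLS: Ciart -0.93, Ano2 -0.93, Kcna5 -0.72, Id4 -0.62, Bhlhe41 -0.59, Dbp -0.51 and Tef -0.39 were smaller or more negative in the NAc, and Slc38a2 was larger at 0.61. Between NAc and DMS 0 genes differed in limma's test (875 at an unadjusted p under 0.05).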

How the results depend on the processing

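The 37 called genes were chosen in libraries that the alternatives use again, which favours an unchanged sign. All 37 kept their sign under every alternative run, leaving out each library included. The counts did not: with all 77 NAc libraries 31 genes were lower, with mitochondrial rRNA share as a covariate 32, and with array weights 28 were higher and 51 lower. Mice numbered up to 30 alone gave 7 higher and 6 lower genes, mice numbered 31 and higher gave 0 and 0, females alone 4 and 2, and males alone 12 lower. Scaling to an equal sum left 5 higher and 8 lower. Leaving out 1 library gave 11 to 23 higher and 11 to 28 lower genes. The cortical marker level as a covariate, chosen after seeing the data as was leaving out the 5 libraries, left 11 lower genes. The test between sexes gave 0 to 2 genes over the libraries left out, 2 without the ZT10 library M18.

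The ZT10 and ZT2 mice are different animals, so pairing was possible only across regions. No replicate block for the mouse gave 15 genes between NAc and DLS and 0 between NAc and DMS. For NAc against DLS, mitochondrial rRNA share as a covariate gave 193 genes and all 6 times 29. A term for animal number range gave 13, equal sums 0 and leaving out the 5 libraries 0. For NAc against DMS the last gave 2. The causes were not tested.

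Some genes not called changed sign. In mice numbered 31 and higher, Hlf was at -0.10, Per1 at -0.15, Tef at -0.014, Usp2 at -0.0079, Rora at -0.20 and Kcna5 at -0.23. In mice numbered up to 30, Wee1 was at -0.023 and Id4 at 0.14. With equal sums, Hlf was at -0.0094, Wee1 at -0.031, Rora at -0.030 and Kcna5 at -0.053. In females Wee1 was at -0.068, Usp2 at -0.024, Rora at -0.0071 and Id4 at 0.11, and in males Rorb was at 0.10 and Kcna5 at -0.20. Without the 5 libraries Wee1 was at -0.041, Rora at -0.0023 and Id4 at 0.065, and with the covariate Rora was at -0.0080 and Id4 at 0.060. Over the fits that left out 1 library, Wee1 ranged between -0.0037 and 0.085, Id4 between -0.12 and 0.0097 and Kcna5 between -0.022 and 0.11. Unknown depth limits what can be said of low values.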
